A study of Mus musculus with 15 samples.

Results

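CC chemokine genes code for small secreted proteins, named for a pair of adjacent cysteines, that draw leukocytes along a gradient by binding G-protein-coupled receptors. Macrophages that line tissue borders are a known source of these ligands. The 9 genes described here were Ccl2, Ccl3, Ccl4, Ccl6, Ccl7, Ccl8, Ccl9, Ccl12 and Ccl24, taken as listed CC ligand genes among 53546 gene rows of a bulk RNA-seq count table. All 9 were among the 14683 genes that passed the filter on low counts in the fit of 15 libraries, and all 9 were among the 14287 genes tested in the fit of 12 libraries.

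The study measured CD206-positive cells sorted from the dura mater, the outer membrane of the brain, at 5 ages: an embryonic one, E14.5, and the postnatal ones P3, P10, P21 and P56, where the number is the day. Each age had 3 libraries, which makes 15 in all. All animals were untreated C57BL/6J mice of the genotype Cx3cr1GFP/wt, so that every library, at each age, came from mice with 1 Cx3cr1 allele carrying GFP and no group had both alleles intact. The P56 libraries belonged to 1 sequencing project and those of the 4 younger ages to another, so P56 and its project cannot be told apart.

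Total counts ranged from 17550170 to 30614583 per library. The 8 macrophage markers, among them the sorted protein's gene Mrc1, summed to 10734 to 17813 CPM (counts per 1000000 of the library's total) in the 15 libraries, and none was at 0 at any age. Markers of other cell types were lower but not absent: 7 classical monocyte markers summed to 18 to 460.2 CPM, 8 mast cell markers to 2.11 to 1762 CPM, 8 fibroblast markers to 62.4 to 2707 CPM and 8 neutrophil markers to 0.0461 to 215 CPM. P21 replicate 2 stood apart from the other libraries, with a score of 156 on the second principal component, and 2 of the 3 E14.5 libraries (replicates 1 and 2) differed from the other 13 libraries in sex-linked genes. Levels below are CPM scaled by TMM, a factor that evens out differences in library make-up, unless another scale is named, and marker sums are CPM of the total. In bulk libraries, fewer cells of a type and less RNA per cell cannot be told apart.

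The genes fall into groups by role. Ccl2, Ccl7, Ccl8 and Ccl12 are the monocyte chemoattractant type: Ccl2, Ccl7 and Ccl12 act through Ccr2, and Ccl8 is known in the mouse as a ligand of Ccr8. Ccl3 and Ccl4 are the macrophage inflammatory type, rapidly induced genes, of which Ccl3 codes for a ligand of Ccr1. Ccl6 and Ccl9 are rodent ligands of Ccr1, and Ccl24 is an eotaxin that acts on Ccr3.

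The transcription starts of 4 members are shown, as 2 pairs of neighbouring genes, Ccl8 with Ccl12 and Ccl6 with Ccl9. Within each pair the genes differed in the size of their changes over age in the measurements that follow. All lie on chromosome 11, and each window runs from 250 bases before the RefSeq start to 50 bases after it (GRCm38.p6). RefSeq promoters were found for 5 of the 9 members, the fifth being Ccl3. The Ccl8 window is chr11:82114935-82115234 and the Ccl12 window chr11:82101595-82101894, both on the plus strand. Capitals mark TATAAA, the TATA box letters.
Ccl8: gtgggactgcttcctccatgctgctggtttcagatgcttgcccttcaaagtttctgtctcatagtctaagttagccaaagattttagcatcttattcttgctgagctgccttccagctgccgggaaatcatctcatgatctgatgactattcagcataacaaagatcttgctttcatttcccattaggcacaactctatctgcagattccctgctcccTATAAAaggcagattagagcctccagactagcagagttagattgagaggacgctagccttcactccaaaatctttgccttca
Ccl12: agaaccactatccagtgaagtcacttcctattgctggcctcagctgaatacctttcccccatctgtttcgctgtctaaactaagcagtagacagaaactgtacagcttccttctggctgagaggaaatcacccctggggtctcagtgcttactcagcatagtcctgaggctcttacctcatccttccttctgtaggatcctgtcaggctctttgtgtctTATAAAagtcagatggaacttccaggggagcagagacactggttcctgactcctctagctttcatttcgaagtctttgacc

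TATAAA began 32 bases before the start of Ccl8 and 31 bases before that of Ccl12, on the gene's own strand. These letters were present, on either strand, in 13.6% of 32851 promoters of the same length. The longest exact run that the Ccl8 and Ccl12 windows shared was 11 bases.

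The Ccl6 window is chr11:83593038-83593337 and the Ccl9 window chr11:83578587-83578886, both on the minus strand. Capitals mark the longest run the windows share, of 13 bases, and the letters are written in the direction of transcription.
Ccl6: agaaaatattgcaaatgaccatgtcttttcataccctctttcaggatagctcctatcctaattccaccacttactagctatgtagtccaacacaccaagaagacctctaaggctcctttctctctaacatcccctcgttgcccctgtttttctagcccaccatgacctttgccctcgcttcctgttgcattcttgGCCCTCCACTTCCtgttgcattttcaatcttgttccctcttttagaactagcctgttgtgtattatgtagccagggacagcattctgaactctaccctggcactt
Ccl9: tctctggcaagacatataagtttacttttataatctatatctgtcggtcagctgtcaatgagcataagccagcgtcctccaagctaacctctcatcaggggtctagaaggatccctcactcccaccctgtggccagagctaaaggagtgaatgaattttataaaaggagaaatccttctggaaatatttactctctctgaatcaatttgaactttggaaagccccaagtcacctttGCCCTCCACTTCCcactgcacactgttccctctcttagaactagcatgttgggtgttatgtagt

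The Ccl9 window held TATAAA 92 bases before the start on its own strand, and on the other strand 94 bases (overlapping the first) and 224 bases before it. It also held TGAATCA 53 bases before the start, a match to TGANTCA, where N is any base. The AP-1 consensus has C or G at N, so this match is not a consensus AP-1 site. TGANTCA was in 7.81% of all promoters. An NF-kappaB motif (3 G, any 2 bases, 3 T and 2 C), found in 1.63% of all promoters, was on the other strand 35 bases before the Ccl9 start. The Ccl6 window held none of these 3 motifs, and TTCNNNGAA, a STAT motif found in 8.3% of all promoters, was in none of the 5 member windows. Both strands were searched for every motif, and a match is a match of letters only.

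Ccl8 had the widest range over age of the 9 genes. It had 2.17, 1.21 and 1.04 CPM in the E14.5 libraries (50, 33 and 30 counts), then 11.1, 31.6 and 19.7 CPM at P3, next 193, 375 and 262 CPM at P10, then 486, 416 and 467 CPM at P21, and finally 1709, 1241 and 791 CPM at P56. No library overlapped with any library of the age before it. In edgeR's quasi-likelihood test with Benjamini-Hochberg adjustment, Ccl8 rose at P3 against E14.5 by 3.83 log2 units (SE 0.44, adjusted p = 0.000365), which is 14.2-fold. That call was lost with limma voom (3.64, adjusted p = 0.266). At P10 it rose again against P3, by 13.4-fold, so that both steps were of similar size on a log scale. At P21 it differed from P10 by 0.72 (SE 0.36, adjusted p = 0.385 by edgeR), which did not pass. Over the span of the 4 younger ages, the P21 level of 456 ± 35.8 CPM stood against 1.47 ± 0.608 CPM at E14.5 (SD, n = 3 each), a rise of 8.29 log2 units (SE 0.51, edgeR adjusted p = 1.44e-07) or 312-fold.

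The 3 Ccr2 ligands of the same type had smaller log2 changes than Ccl8. Ccl2 had 592, 1065 and 739.7 CPM at P3, against 252, 403 and 419 CPM at E14.5, with no overlap, and rose by 1.16 (SE 0.28, edgeR adjusted p = 0.0475). Ccl7 had 445, 919 and 611 CPM at P3, against 181, 201 and 209 CPM at E14.5, and rose by 1.74 (SE 0.33, edgeR adjusted p = 0.0125). Ccl12 had 268, 377 and 355 CPM at P3, against 229.9, 262 and 282 CPM at E14.5, so that the ages overlapped, and its log2 change of 0.37 did not pass (SE 0.18, adjusted p = 0.411). The calls for Ccl2 and Ccl7 were sensitive to single libraries: without E14.5 replicate 1 the edgeR adjusted p was 0.205 for Ccl2 and 0.0696 for Ccl7, without E14.5 replicate 2 it was 0.124 for Ccl2 and 0.0641 for Ccl7, and without P3 replicate 2 it was 0.214 for Ccl2 and 0.0605 for Ccl7. Ccl2 also lost its call without E14.5 replicate 3 (0.0857) and without P3 replicate 3 (0.112), while its log2 change in these fits was 0.89 to 1.29.

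At P10, Ccl2 had 1139, 1497 and 1146 CPM and no P10 library was as low as the highest P3 library, yet the log2 change of 0.66 against P3 did not pass (SE 0.27, edgeR adjusted p = 0.439). At P21 Ccl2 had 1050.1, 1654 and 1128 CPM, which overlapped with P10, and its log2 change was 0.02 (SE 0.27, adjusted p = 0.99). Ccl7 had 854, 1312 and 916 CPM at P10 and 1053, 2499.9 and 1242 CPM at P21, the last age with 1 library, replicate 2, far above the others. Ccl12 had 486, 784 and 522 CPM at P10, above all P3 libraries, and its log2 change of 0.84 was just short of the threshold (SE 0.18, edgeR adjusted p = 0.0646). It passed with DESeq2 (adjusted p = 0.00117, beside 334 genes called in all) and with limma voom (adjusted p = 0.0464, beside 94). At P21, against E14.5, all 3 had risen: Ccl2 by 1.83 (SE 0.28, adjusted p = 0.000648), Ccl7 by 3.02 (SE 0.34, adjusted p = 5.67e-05) and Ccl12 by 1.73 (SE 0.18, adjusted p = 2.79e-05), all by edgeR. The Ccl12 libraries were close together at P21, with 944, 788 and 839.8 CPM.

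Marker sums of other cell types moved with these rises. The 8 fibroblast markers summed to 530.4, 1785 and 2449 CPM at P3, against 62.4, 69.5 and 696 CPM at E14.5, and the 8 mast cell markers to 636, 1762 and 1149 CPM at P3, against 126, 4.16 and 2.11 CPM at E14.5. At P21, against E14.5, fibroblast markers stayed above all E14.5 libraries (996 to 1838 CPM at P21), while mast cell markers were at 4.05 to 11.4 CPM, within the E14.5 range. At P56 the fibroblast markers summed to 82.2 to 138 CPM while Ccl8 was at its highest. The 8 osteoclast markers summed to 885 to 1396 CPM at P3, against 131 to 601 CPM at E14.5, but to 189 to 273 CPM at P21. The 7 classical monocyte markers summed to 18 to 36.9 CPM at E14.5, 45.8 to 55.1 CPM at P3 and 79.2 to 141 CPM at P21. The 5 microglia markers summed to 1179.7 to 1368 CPM at P21, against 662 to 856 CPM at E14.5. Of the 4 tested, 3 were called higher in that comparison, beside 7.81% of all tested genes. The 8 dendritic cell markers summed to 45.3 to 144 CPM at P21, against 22.2 to 27.3 CPM at E14.5. Of the 7 tested, 1 was called higher (Cd209a) and 1 lower (Xcr1), beside 7.81% and 4.37% of all tested genes. Cd209a averaged 46.9 ± 51.5 CPM at P21 and 0.079 ± 0.102 CPM at E14.5 (SD, n = 3 each), and Clec9a was at 0 at both ages. The 7 T and NK cell markers summed to 31.7 to 46.2 CPM at E14.5, 155 to 178 CPM at P3 and 196 to 296 CPM at P21, with Cd3e and Cd3d at 0 in all libraries of E14.5 and P21. Cd4 made up nearly all of that sum, with means of 37.1, 163 and 249 CPM at E14.5, P3 and P21. The part of these cell types in the rises of Ccl2, Ccl7, Ccl8 and Ccl12 was not tested.

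**Figure D1:**
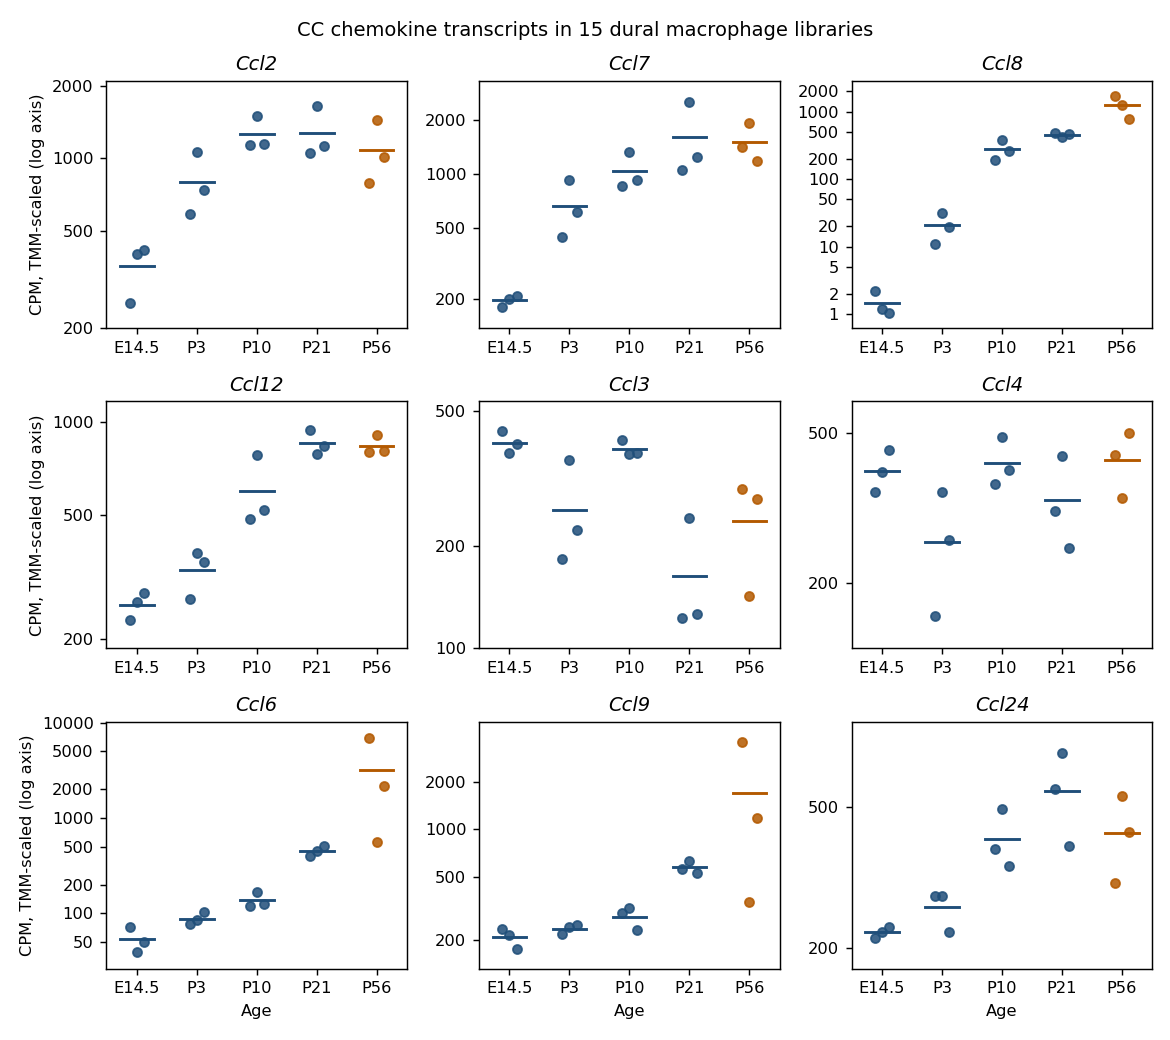
Levels of the 9 CC chemokine genes (CPM scaled by TMM, log axis, a separate range in each panel) by age, with 1 point per library and a line at the mean of 3. Orange points (P56) belong to another sequencing project than the blue ones; Ccl8 spans 1.04 to 1709 CPM, while Ccl4 stays between 163 and 499 CPM.

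Ccl3 was the one member called lower at P21 than at E14.5, and Ccl4, its neighbour of the same type, did not pass in any comparison. Ccl3 had 122, 241 and 126 CPM at P21, against 436, 376 and 400.2 CPM at E14.5, and fell by 1.31 log2 units (SE 0.31, edgeR adjusted p = 0.0135). The libraries of the 2 ages did not overlap, but the call was lost without P21 replicate 1 (adjusted p = 0.0605). Ccl4 had 311, 435 and 248 CPM at P21, against 348, 393 and 451 CPM at E14.5, which overlapped (log2 change -0.26, SE 0.26, adjusted p = 0.578).

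The course of Ccl3 between these ages was not even. At P3 it had 183, 358 and 223 CPM, a log2 change of -0.66 against E14.5 that did not pass (SE 0.31, edgeR adjusted p = 0.388), and at P10 it had 411, 373 and 377 CPM, within the E14.5 range except for replicate 2, just below it. At P21, against P10, the log2 change of -1.25 did not pass in the fit of 15 libraries (SE 0.31, edgeR adjusted p = 0.0769) and passed without P21 replicate 2 (-1.64, adjusted p = 0.0353). Ccl4 had 163, 349 and 259.6 CPM at P3 and 366, 488 and 399 CPM at P10, and its log2 change at P3 against E14.5 did not pass either (-0.63, SE 0.26, adjusted p = 0.313). The summed level of 15 immediate early and heat shock genes, which handling can induce in sorted cells, had its lowest values at the same age: 17583 to 19109 CPM in E14.5 libraries, 11006 to 12489 CPM at P3, then 18992 to 22841 CPM at P10 and 22687 to 24739 CPM at P21. At P3 against E14.5, where Ccl2, Ccl7 and Ccl8 rose, 2 of the 15 were called higher and 4 lower. Of all tested genes, 2.06% were called there in either direction. At P10 against P3, where Ccl8 rose, 5 were called higher and 0 lower, beside 0.341% of all tested genes higher. At P21 against E14.5 the calls were 9 higher and 1 lower, beside 7.81% and 4.37% of all tested genes. The part of this sum in the P3 values of Ccl3 and Ccl4, and in the rises of other members, was not tested. At P21, where Ccl3 was lowest, that sum lay above all E14.5 libraries.

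Set against each other per kilobase of exon, Ccl3 stood at 0.764 to 1.08 times Ccl4 in the E14.5 libraries, 0.739 to 0.97 at P3, then 0.66 to 0.969 at P10, 0.338 to 0.477 at P21 and then 0.363 to 0.581 at P56. Every P21 and P56 library thus lay below every library of the 3 younger ages in this ratio. One of the RefSeq models of Ccl4 overlaps Ccl3 on the opposite strand, and no strand setting of the counting is given in the sources used here, so reads of the overlap cannot be assigned with certainty.

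Ccl6 and Ccl9 had their higher levels at P21 and P56 and scattered widely at P56. Ccl6 had 403, 454 and 509 CPM at P21, against 71.5, 39 and 49.8 CPM at E14.5, and rose by 3.09 (SE 0.61, edgeR adjusted p = 0.00398), or 8.53-fold. Ccl9 had 565, 635 and 527 CPM at P21, against 236, 216 and 176 CPM at E14.5, with no overlap, but its log2 change of 1.46 did not pass in the fit of 15 libraries (SE 0.52, adjusted p = 0.0883). In a fit of the 12 libraries without P56, added after the data were seen, it did, with a like change of 1.45 and a smaller error (SE 0.14, edgeR adjusted p = 4.81e-05). Most of this step lay between P10 and P21: Ccl9 averaged 281 ± 44 CPM at P10 (SD, n = 3; highest 317) and had 218, 241 and 249 CPM at P3, close to its E14.5 values.

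In the fit of 12 libraries, Ccl6 at P21 stood 1.73 above P10 on the log2 scale (SE 0.21, edgeR adjusted p = 0.0023) and Ccl9 stood 1.03 above it (SE 0.14, adjusted p = 0.00441). Neither passed in the fit of 15 libraries, where the SE was 0.58 for Ccl6 (adjusted p = 0.185) and 0.52 for Ccl9 (adjusted p = 0.385). The fits differ in whether the 3 P56 libraries enter, in which these genes ranged over 556 to 6836 CPM and 347 to 3566 CPM. Ccl6 had 76.5, 84.5 and 102 CPM at P3 and 119, 166 and 126 CPM at P10, each age above all libraries of the age before. The 7 classical monocyte markers summed to 21.9 to 60.4 CPM at P10 and 79.2 to 141 CPM at P21. Ccr2, one of these markers, averaged 32.1 and 91.6 CPM of the total at these ages. The 8 osteoclast markers summed to 924 to 1909.7 CPM at P10 and 189 to 273 CPM at P21. The part of these cell types in the rises of Ccl6 and Ccl9 at P21 was not tested.

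Ccl24, whose product attracts eosinophils, had 559.7, 710.1 and 388 CPM at P21, against 213, 222 and 229 CPM at E14.5. It rose by 1.32 (SE 0.23, edgeR adjusted p = 0.00174), or 2.5-fold. The steps in between were 279, 280.4 and 222 CPM at P3 and 381, 494 and 339 CPM at P10, and none of the changes between neighbouring ages passed.

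Counted by comparison, P3 against E14.5 gave 3 of the 9 members as changed, all higher (Ccl2, Ccl7 and Ccl8), while 2.06% of all tested genes were called, 1.67% higher. The libraries of these ages did not overlap for 5 members, 4 higher and Ccl3 lower, where 26.4% of all tested genes showed no overlap, 13.4% higher and 13% lower. The median log2 change was 0.37 over the members and 0.01 over all tested genes. P10 against P3 gave 1 called member, Ccl8, beside 0.402% of all tested genes in either direction and 0.341% higher. In that comparison 7 members lay higher with no overlap, beside 9.8% of all tested genes higher and 19.2% in either direction (medians 0.64 and 0.01). P21 against P10 gave 0 called members in the fit of 15 libraries, where 1.14% of all tested genes were called. Unadjusted, 3 members had a p under 0.05 in that comparison, beside 14.6% of all tested genes. DESeq2 and limma voom each called 1 member (Ccl3), beside 748 genes in all with DESeq2 and 261 with limma voom. In the same comparison 4 members lay higher and Ccl3 lower with no overlap, beside 17.7% of all tested genes, 8.8% higher and 8.92% lower (medians 0.52 and -0.01). On CPM of the total, without TMM, the ages overlapped for Ccl3 at P10 against P3 and for Ccl12 at P21 against P10, and did not for Ccl4, lower at P3 than at E14.5. The fit of 12 libraries called 3 members (Ccl3, Ccl6 and Ccl9) at P21 against P10, where it called 2.28% of its tested genes, and 8 members at P21 against E14.5, where it called 13.9%.

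P21 against E14.5, the longest span within 1 sequencing project, gave 7 of 9 called members, 6 higher and Ccl3 lower, where 12.2% of all tested genes were called, 7.81% higher and 4.37% lower. Here 8 members did not overlap, beside 33.4% of all tested genes, 16.1% higher and 17.4% lower, and the median log2 change was 1.73 over the members and -0.01 over all tested genes. The F-test of any difference among E14.5, P3, P10 and P21 in the 12 libraries called 8 of 9 members, where 12.3% of all tested genes were called. Ccl4 was the exception (edgeR adjusted p = 0.267), the Ccl3 call (0.0222) was lost without any 1 of 5 libraries (0.054 to 0.067), and the smallest adjusted p were those of Ccl8 (1.59e-06) and Ccl6 (8.19e-06). The comparisons share libraries, so their results are not independent. Without both E14.5 libraries that differed in sex-linked genes, 3 members (Ccl7, Ccl8 and Ccl12) were called at P21 against E14.5 and 1 (Ccl8) at P3 against E14.5, with a single E14.5 library left, which is assumed to vary like the other ages.

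**Figure D2:**
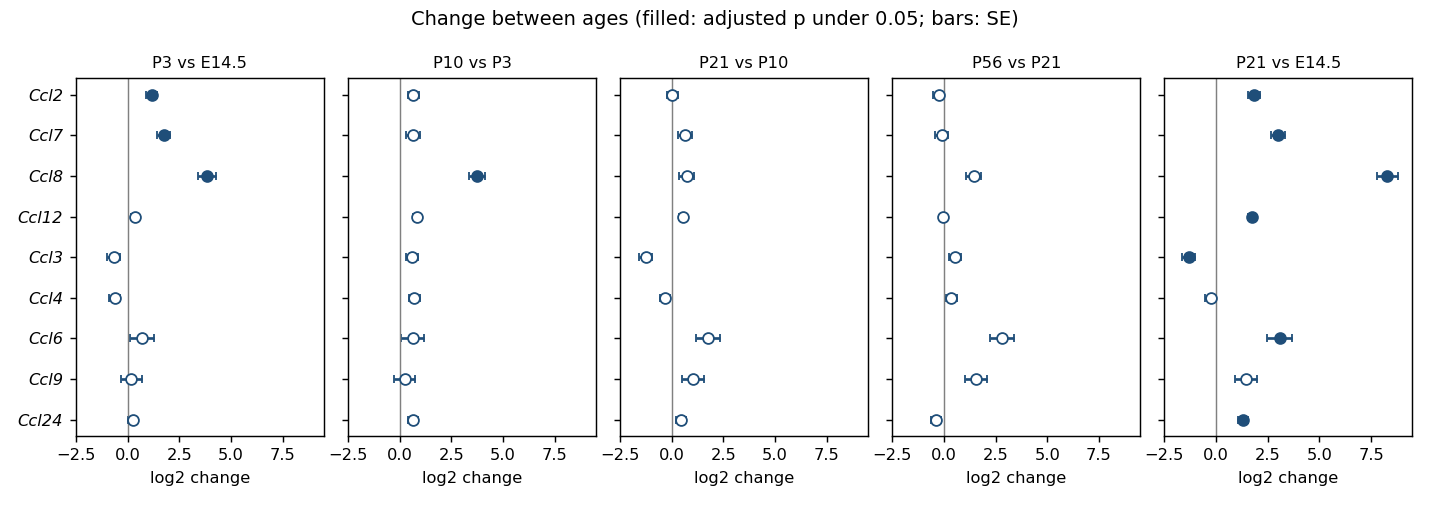
Log2 changes of the 9 genes in the 5 comparisons of 2 ages from the edgeR fit of 15 libraries, with bars of 1 SE; filled points had an adjusted p under 0.05. The value of Ccl8 at P21 against E14.5 is 8.29, and Ccl3 is the one gene with a filled point below 0.

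At P56, against P21, 0 of 9 members passed with edgeR, where 0.272% of all tested genes were called, and 3 had an unadjusted p under 0.05 (Ccl6, Ccl8 and Ccl9), beside 11.7% of all tested genes. Ccl8 had 1709, 1241 and 791 CPM at P56, against 486, 416 and 467 CPM at P21, with no overlap and a log2 change of 1.45 (SE 0.37, edgeR adjusted p = 0.131). It passed with DESeq2 (adjusted p = 0.003) and with limma voom (1.38, adjusted p = 0.0311), which called 524 and 52 genes in all. Ccl6 had 6836, 556 and 2156 CPM at P56, all above the 403 to 509 CPM at P21, with a log2 change of 2.81 (SE 0.60, edgeR adjusted p = 0.0826). It passed with DESeq2 (adjusted p = 0.000279) and with a filter of 5 CPM (edgeR adjusted p = 0.0473). Ccl9 had 3566, 347 and 1180.4 CPM at P56, of which replicate 5 lay below all P21 libraries. Without P56 replicate 5 both passed, Ccl6 with 3.3 (adjusted p = 0.0053) and Ccl9 with 2.04 (adjusted p = 0.0224). Without P56 replicate 4 the log2 changes were at their lowest, 1.57 for Ccl6 and 0.40 for Ccl9. No overlap was seen for 2 members, Ccl6 and Ccl8, beside 13% of all tested genes in either direction and 6.76% higher, and on CPM of the total Ccl6 did overlap (medians 0.36 over the members and 0 over all tested genes).

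The other 6 members had log2 changes of -0.39 (Ccl24) to 0.54 (Ccl3) at P56 against P21, none past the threshold. Ccl2 had 791, 1446 and 1013 CPM at P56, Ccl7 1399.8, 1908 and 1181 CPM and Ccl12 803, 906 and 805 CPM, all 3 overlapping with their P21 libraries. Ccl3 had 295, 142 and 275 CPM at P56, Ccl4 438, 336 and 499 CPM and Ccl24 305, 535 and 423 CPM, which overlapped with P21 too.

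The P56 libraries kept the same order in Ccl6 and Ccl9, with replicate 4 highest, replicate 6 next and replicate 5 lowest. The sum of the 7 classical monocyte markers had that order too, with 460.2 CPM in replicate 4, 52.3 in replicate 5 and 107 in replicate 6, against 79.2 to 141 CPM at P21. Of these markers Chil3 was at 0 in all P56 libraries. Ccr2, one of the 7, made up nearly all of that sum, with 459.5, 52.3 and 105 CPM of the total in replicates 4, 5 and 6 (537, 62.3 and 129.8 CPM on the TMM scale). Over the 6 markers tested, the median log2 change at P56 against P21 was -2.86. The 8 macrophage markers summed to 10734, 17813 and 17365 CPM in replicates 4, 5 and 6. The part of monocytes in the P56 values of Ccl6 and Ccl9 was not tested. Ccl8 did not follow that order, since its lowest P56 value was in replicate 6.

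**Figure D3:**
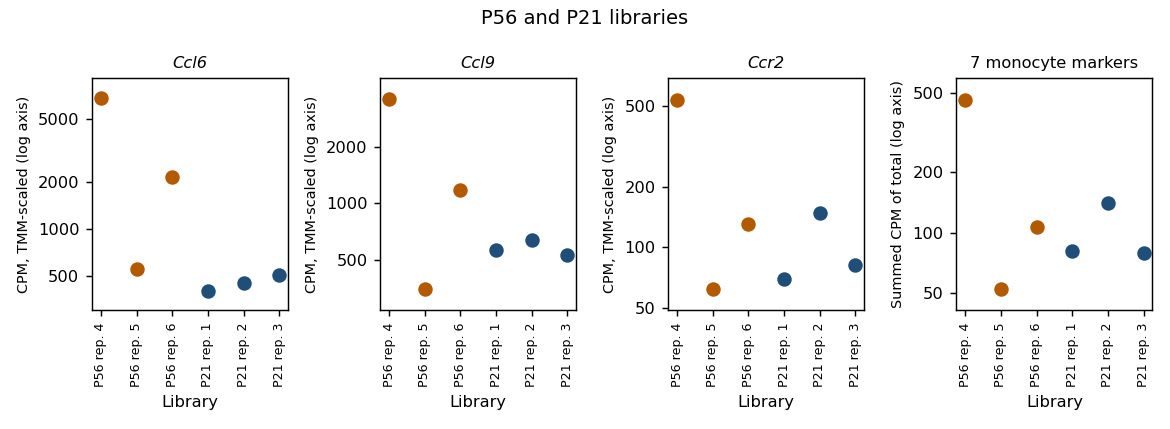
Ccl6, Ccl9 and Ccr2 (CPM scaled by TMM) and the sum of 7 classical monocyte markers (CPM of the total) in the 3 P56 and the 3 P21 libraries, on log axes, with 1 point per library. In all 4 panels P56 replicate 4 is the highest point, with 6836 CPM for Ccl6, and P56 replicate 5 is the lowest of the P56 points; Ccr2 is one of the 7 markers and makes up nearly all of their sum at P56, so those panels are not independent.

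The order of the 9 levels changed with age. Levels per kilobase divide by the exon bases of all GENCODE M21 transcripts of a gene together. They compare genes only as far as these lengths match the transcripts present. On this scale Ccl4 led at E14.5 with 602 ± 78.2 CPM per kilobase (SD, n = 3). Ccl3 with 527 ± 39.3 and Ccl12 with 481 ± 49.2 followed, neighbours whose SD ranges met. Next came Ccl2 with 315 ± 81, Ccl7 with 246 ± 17.9, Ccl24 with 171 ± 5.85, Ccl9 with 68.7 ± 10.1, Ccl6 with 29.8 ± 9.21 and Ccl8 with 2.89 ± 1.19 CPM per kilobase. Of these neighbours, Ccl2 and Ccl7 were within 1 SD of each other, and each gene from Ccl7 down stood apart from the next by more than the SD. At P3, Ccl7 (822 ± 300.1), Ccl2 (702 ± 213) and Ccl12 (620.4 ± 107) led and did not differ beyond their spread, and Ccl4 (389.6 ± 141), Ccl3 (333 ± 119.8) and Ccl24 (201 ± 25.7) came next. Below them at P3 were Ccl9 (77.6 ± 5.23), Ccl6 (48.8 ± 7.24) and Ccl8 (40.7 ± 20.2), of which the last pair overlapped. At P10 the same 3 led, with Ccl7 at 1282 ± 309.8, Ccl12 at 1112 ± 303 and Ccl2 at 1108 ± 179.9, again within their spread, and Ccl8 had come to rank 5 with 542 ± 180.3, within the spread of Ccl4 above it (633 ± 95.4) and Ccl3 below it (506 ± 27.4). At P21 Ccl7 (1995 ± 982) and Ccl12 (1596 ± 147) overlapped in spread, and Ccl2 (1122 ± 289) and Ccl8 (893 ± 70.1) followed, also overlapping. The other 5 lay below, at 502 ± 144 for Ccl4, 427 ± 125 for Ccl24, 254 ± 29.4 for Ccl6, 212 ± 88 for Ccl3 and 189 ± 18 for Ccl9. At P56 Ccl8 led with 2440 ± 899 CPM per kilobase, but its spread met those of Ccl7 (1868 ± 465), Ccl6 (1773 ± 1818) and Ccl12 (1560.4 ± 109.6). Ccl3, near the top at E14.5, was the lowest of the 9 at P56 with 309.8 ± 109, within the spread of Ccl24 (325 ± 88.8).

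As shares of the pool of the 9 genes per kilobase, Ccl3 and Ccl4 together took the largest part at E14.5 (21.7 ± 3% and 24.6 ± 1.36%) and a small one at P21 (2.88 ± 0.588% and 6.91 ± 0.83%). Ccl8 held 0.121 ± 0.0589% at E14.5, 1.21 ± 0.291% at P3, then 9.42 ± 1.51% at P10, 12.8 ± 3.14% at P21 and then 23 ± 4.15% at P56 (SD, n = 3 each). Ccl12 held 16.8% to 21.3% in the 9 libraries of E14.5, P3 and P10, and 27.4%, 16.6% and 24.8% in P21 replicates 1, 2 and 3. Its P21 mean of 22.9 ± 5.62% thus spans values above and below all younger libraries, the low one in the replicate that stood apart. Ccl6 held 28.1%, 3.33% and 14.2% in P56 replicates 4, 5 and 6, so its mean share there describes no single library. The summed level of the 9 genes was 2100.2 ± 124 CPM at E14.5, then 2908 ± 743 at P3, 4789.6 ± 881 by P10, 6267 ± 1356 by P21 and 10628 ± 4799 at P56. As a share of all counts it ran from 0.221% to 0.253% at E14.5 and from 0.623% to 1.38% at P56.

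**Figure D4:**
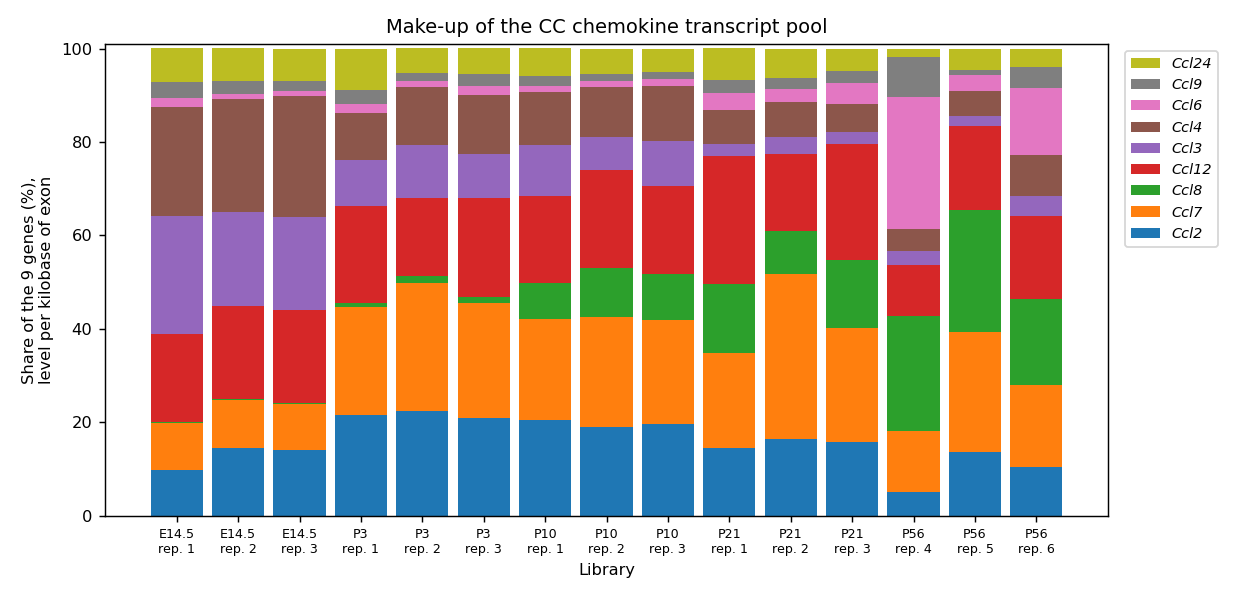
Share of each gene in the summed level per kilobase of exon of the 9 CC chemokine genes (%), 1 bar per library, from E14.5 at the left to P56 at the right. The Ccl3 and Ccl4 bands (purple and brown) narrow with age, and the Ccl8 band (green), 0.121% on average at E14.5, reaches 23% on average at P56.

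Pairs of related ligands also shifted against each other within libraries. Ccl7 stood at 0.709 to 1.02 times Ccl2 per kilobase in the E14.5 libraries, 1.07 to 1.23 at P3, then 1.07 to 1.24 at P10, 1.42 to 2.15 at P21 and then 1.66 to 2.51 at P56. Ccl9 stood at 1.95 to 3.26 times Ccl6 at E14.5, then 1.44 to 1.68 at P3, 1.09 to 1.46 by P10, 0.61 to 0.826 by P21 and 0.307 to 0.368 at P56. This ratio was steady among the P56 libraries, whose Ccl6 levels lay far apart. The transcripts of Ccl6 and Ccl9 share an exact run of at most 25 bases, those of Ccl2 and Ccl7 of 23 bases and those of Ccl2 and Ccl12 of 17 bases in GENCODE M21.

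Among 16 receptor and decoy receptor genes of the CC family, 8 were tested, and 4 of them differed among E14.5, P3, P10 and P21, including Ccrl2, Ccr2 and Ccr1, where 12.3% of all tested genes differed. At P21 against E14.5 the median log2 change of the 8 was 1.31 (-0.01 over all tested genes), with 2 called higher, beside 7.81% of all tested genes, and 0 lower. Ccr2, the receptor for Ccl2, Ccl7 and Ccl12, averaged 99.7 ± 42.1 CPM at P21 and 19.8 ± 9.48 CPM at E14.5, a rise of 2.33 log2 units (SE 0.70, edgeR adjusted p = 0.0425). Ccrl2, an atypical receptor that binds chemerin and is not known to signal, averaged 440.5 ± 37.7 CPM at P10 and 115 ± 27.6 CPM at P3 and rose by 1.94 (SE 0.32, adjusted p = 0.0159). It was the only receptor called in that comparison. Ccr1, the receptor for Ccl3, Ccl6 and Ccl9, averaged 510.4 ± 239.7 CPM at P56 and 194 ± 23.3 CPM at P21, a rise of 1.39 (SE 0.24, adjusted p = 0.0252). The P21 mean of Ccr1 was its lowest, below 269 ± 24.7 CPM at E14.5, 296 ± 31.7 at P3 and 289 ± 1.98 at P10. Its P56 libraries had 787, 373 and 371 CPM, with replicate 4 the highest here too.

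Ccr3, the receptor of Ccl24, was low at all ages, with means of 5.69 to 14.8 CPM, and did not differ past the threshold among the 4 younger ages (edgeR F-test, adjusted p = 0.491). Ccr8, the mouse receptor of Ccl8, was below the filter on low counts, with a mean of 0.463 CPM at E14.5, then 0.377 CPM at P3, and 0 counts in every library of P10, P21 and P56.

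**Figure D5:**
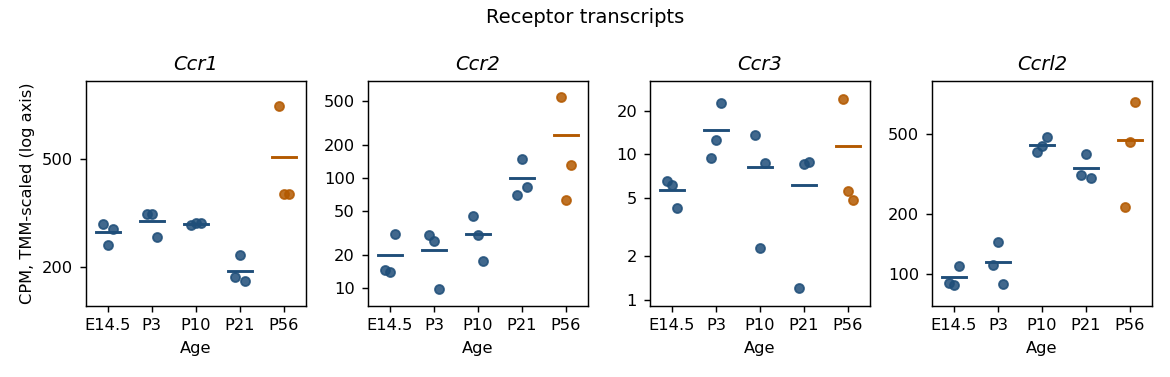
Levels of 4 receptor genes (CPM scaled by TMM, log axis, a separate range in each panel) by age, with 1 point per library and a line at the mean; orange points (P56) belong to another sequencing project than the blue ones. Ccrl2 averages 440.5 CPM at P10 and 115 CPM at P3. Ccr1 averages 269, 296 and 289 CPM at E14.5, P3 and P10, then 194 CPM at P21 and 510.4 CPM at P56.

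Regulators of chemokine transcription and transcript decay are given as whole lists. Of 13 STAT and IRF genes, factors of interferon and cytokine signalling, 6 rose, beside 7.81% of all tested genes, and 0 fell at P21 against E14.5 (median log2 change 0.54, against -0.01 over all tested genes), including Stat3, Irf1, Irf5, Irf7 and Irf9. Irf7, a factor induced by type I interferon, averaged 151 ± 58.6 CPM at P21 and 30.9 ± 8.4 CPM at E14.5 and rose by 2.29 (SE 0.32, edgeR adjusted p = 0.00032). It also rose at P3 against E14.5 (1.5, SE 0.31, adjusted p = 0.0225) and at P21 against P10 (2.07, SE 0.32, adjusted p = 0.0073), with 36 ± 2.28 CPM at P10 between. Irf1, induced by interferon gamma, averaged 775 ± 122 CPM at P21 and 243 ± 50 CPM at E14.5 and rose by 1.67 (SE 0.34, adjusted p = 0.00502).

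Of 19 genes of the NF-kappaB pathway, which drives many chemokine genes, 2 rose at P21 against E14.5 (Nfkbib and Nfkbie, both inhibitors) and 0 fell. Of all tested genes 7.81% were called higher and 4.37% lower in that comparison. The median log2 change was 0.25 over the list and -0.01 over all tested genes. Among the 4 younger ages 6 of the 19 differed, beside 12.3% of all tested genes. Tnfaip3, which codes for the deubiquitinase A20 that restrains the pathway, averaged 424 ± 53.6 CPM at E14.5, then 267 ± 19.8 at P3, 382 ± 89.4 by P10 and 776 ± 118 at P21 (SD, n = 3 each; edgeR F-test, adjusted p = 0.000682). Nfkbie averaged 98 ± 9.55 CPM at P21 and 35.9 ± 4.21 CPM at E14.5 and rose by 1.45 (SE 0.31, adjusted p = 0.00754). Of 8 genes for proteins that destabilise cytokine transcripts or bind AU-rich ones, 1 rose (Zfp36l1) and 1 fell (Hnrnpd) at P21 against E14.5 (median 0.06). This stands beside 7.81% of all tested genes called higher and 4.37% lower. Zfp36, which codes for tristetraprolin, rose at P10 against P3 (1.11, SE 0.20, edgeR adjusted p = 0.0292), where 0.341% of all tested genes were called higher. Zfp36 had 2537, 3494 and 3249 CPM at P10, all above the 1501, 1676 and 1135 CPM at P3. Of 12 other CC ligand genes, 5 were tested in the fit of 15 libraries and 0 were called in any comparison.

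The genes whose course was most like that of each member over the 12 libraries of the 4 younger ages were found by the root mean square difference of mean-centred log2 CPM among 9298 genes, as a description. For Ccl9 they were Nfkbie (0.13), Cd52 (0.18) and Cebpg (0.18), and for Ccl24 they were Sbds (0.14), Gnpda2 (0.14) and Ccdc12 (0.15). Ccl12 was nearest to Eif4e3 (0.19), Ctss (0.23) and C1qb (0.24), and Ccl4 to Fyttd1 (0.21), Fam114a2 (0.25) and Zfand5 (0.27). Ccl2 was nearest to Clec4a3 (0.25), Lamtor4 (0.27) and Hpgd (0.29), and Ccl7 to Clec4n (0.33), Fcgr2b (0.37) and Cib2 (0.37). Ccl3 was nearest to Tstd3 (0.31), Apex1 (0.31) and Gar1 (0.32), and Ccl6 to Susd1 (0.36), Rab7b (0.36) and Stk17b (0.38). Ccl8 was nearest to Cbr2 (1.12), Igfbp7 (1.16) and Palmd (1.18). This measure grows with a member's own spread, and the SD of log2 CPM over the 12 libraries was 3.47 for Ccl8 and 0.44 (Ccl4) to 1.23 (Ccl6) for the other members, so the values do not rank members by how close their nearest genes are.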

How the data were processed

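Bulk RNA-seq of CD206-positive dural cells was analysed from deposited read counts, not normalized, with 1 row per gene symbol, which the authors made with bcl2fastq 2.18, STAR 2.7.8a and featureCounts 2.0.2, per the submitters' processing notes. Per the labels' protocols, cDNA was made with the SMARTer v4 kit and libraries with Nextera XT. The genome build, annotation, strand setting and treatment of multi-mapping reads are not given in the sources used here, and no molecular identifiers are named. The series text gives 3 to 5 mice per age and does not say which mice went into which library, so p-values measure the spread between libraries, which may in part be technical.

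Counts were fitted in R 4.3.3 with edgeR 4.0.16 (TMM, filterByExpr by age, robust quasi-likelihood F-tests, age as the only term). All 15 libraries entered 1 fit for the 5 comparisons of 2 ages, and the 12 libraries of the 4 younger ages, which share a sequencing project, entered the F-test of any difference. Benjamini-Hochberg adjustment ran over all genes tested, and a gene was called at an adjusted p under 0.05. Exon lengths came from GENCODE M21, with the exons of all transcripts of a gene merged, and promoter sequences from RefSeq (GRCm38.p6). The fit was tested on simulated data. Alternatives were other scalings and filters, fits of fewer libraries, a replicate block, leaving out each library, limma 3.58.1 (voom) and DESeq2 1.42.0.

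The 9 members and the lists were chosen with earlier results of these data known. All members are named, with up to 4 called genes per list by smallest p in the F-test, the receptors Ccr1, Ccr2 and Ccr3, and the 3 most alike genes per member with a mean of at least 5 CPM. Called genes of short lists, and Ccr8, are named beyond this rule, after their values were seen. Some genes that the rule names are not reported here.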

Additional observations from a re-analysis of the deposited data

How the results depend on the processing

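Of 864 values of single members under the alternatives, 799 kept their direction and their side of the threshold, 29 lost a call, 26 gained one and 10 turned in sign, none of them called. At P3 against E14.5, 1 member was called with no filter, with limma voom or with only the third E14.5 library kept, against 3 in the fit reported, and 1 to 3 were called when single libraries were left out. The 1 member called by limma voom was Ccl7: Ccl8 had a log2 change of 3.64 there and an adjusted p of 0.266, and the cause was not tested. At P10 against P3, 2 members were called with no filter, with a filter of 5 CPM, with limma voom and with DESeq2, against 1, and 1 with each library left out. At P21 against P10, where 0 were called, the filter of 5 CPM, limma voom and DESeq2 called 1, a fit of only these ages 2, and 0 to 1 were called when single libraries were left out. At P56 against P21, where 0 were called, the filter of 5 CPM and limma voom called 1, DESeq2 2, and 0 to 2 were called when single libraries were left out. At P21 against E14.5, 6 to 7 were called with single libraries left out and 3 with only the third E14.5 library kept; for any difference these counts were 7 to 8 and 4, and Ccl9 lost its call in a fit of all 15 libraries (adjusted p = 0.184). The Ccl3 call for any difference was lost without E14.5 replicate 1 (0.0575), 2 (0.0542) or 3 (0.054) and without P21 replicate 1 (0.067) or 3 (0.0655).

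The log2 change of Ccl2 at P21 against P10, 0.02, was -0.02 with upper quartile scaling, 0 with no filter, 0 with the replicate block and -0.21 to 0.16 with single libraries left out. At P56 against P21, with single libraries left out, it was -0.32 to 0.38 for Ccl7 and -0.09 to 0.04 for Ccl12. The replicate numbers did not pair the libraries: the deviations of 18 same-numbered pairs correlated at -0.0539 to 0.0634 and those of 36 other pairs at -0.0628 to 0.0638. With the replicate block in the 12 libraries, 3 members were called at P21 against P10, as in the fit of 12 libraries with no block (3), and 8 were called at P21 against E14.5. The numbers at P56 differ from those at P21, so no block was possible there. The fit of 12 libraries and the fits with only the third E14.5 library were chosen after seeing the data.

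The number of all genes called moved by more than 1.5 times in every comparison: 22 to 825 at P3 against E14.5 (302 in the fit reported), 21 to 334 at P10 against P3 (59), 30 to 748 at P21 against P10 (168), 3 to 524 at P56 against P21 (40), 374 to 2782 at P21 against E14.5 (1789) and 501 to 3226 for any difference (1759). DESeq2 gave the highest count each time. With 3 libraries per age, changes smaller than the SE given could not be told from the spread between libraries. Some changes of several SE did not pass either, such as that of Ccl12 at P10 against P3 (0.84, SE 0.18, edgeR adjusted p = 0.0646). At E14.5 the Ccl8 level rested on 30 to 50 counts per library.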
